A study of Mus musculus with 48 samples.

Results

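Immediate early response genes were examined in livers of mice given dichloroacetic acid (DCA), a by-product of water chlorination that enlarges the rodent liver. The 10 genes were taken by symbol (Egr1, Fos, Jun, Junb, Atf3, Ier2, Ier3, Dusp1, Klf6 and Btg2) from 2 deposited TempO-Seq tables, 1 for frozen (FROZ) and 1 for formalin-fixed, paraffin-embedded (FFPE) liver. The FROZ table lists 9 of the 10 genes among 11275 genes, all but Ier3, and the FFPE table lists 5 of the 10 among 6673 genes (Egr1, Jun, Ier2, Dusp1 and Btg2). All 24 animals were male B6C3F1 mice, 4 weeks old at the start, that drank water for 6 days with vehicle or with DCA at 198, 313 or 427 mg/kg-d. Each group held 6 mice, and every mouse gave 1 FROZ library from mixed lobes and 1 FFPE library from the left lateral and right medial lobes, so 48 libraries were compared. Blocks and frozen tissue were long-archived when assayed.

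Immediate early genes are transcribed within minutes of a stimulus, without new protein synthesis, because the factors that switch them on are already in the cell and are activated by kinases of the MAPK pathways. Many of their products are transcription factors: Fos, Jun and Junb pair to form AP-1, Egr1 and Klf6 are zinc finger proteins, and Atf3 is a stress-induced factor of the ATF/CREB family. Others end the response, such as Dusp1, a phosphatase that removes the activating phosphates from MAP kinases, and Btg2, which slows cell division. In liver the genes are known to rise after partial hepatectomy, growth factors and many toxicants, and their transcripts are short-lived.

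TempO-Seq counts pairs of probes that were joined by a ligase while lying next to each other on the transcript. Levels below are counts scaled to a fixed library total (CPM) and differences are log2 fold changes of log2(CPM + 1), which understate the change of low genes, with their standard error (SE). A call is a false discovery rate (FDR, Benjamini-Hochberg over all genes of the table, limma) under 0.05, and a differentially expressed gene (DEG) is a call with a fold change above 2. Levels are not compared between genes, since probes differ in efficiency. FROZ libraries came from isolated RNA and FFPE libraries from lysed sections, and each table was scaled to its own genes. A difference between FROZ and FFPE levels thus holds input and scaling as well as preservation, which cannot be told apart. The median depth recovered from the low values was 8.25 M reads in FROZ (6.69 to 9.84 M) and 4.71 M in FFPE (1.83 to 6.01 M). FFPE libraries had 65 to 1587 genes at 0, and FROZ libraries 12 to 61. In FFPE 7 libraries had over 800 genes at 0, 4 at 198 mg/kg-d and 3 at 313 mg/kg-d. Member results in FFPE are given below with and without these 7 libraries. The FFPE library of control animal 3, with 793 genes at 0, lay just under this cut and was kept.

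The upstream sequence of members whose levels follow is shown because the CREB, ATF and AP-1 factors of this response bind the elements searched there. RefSeq promoter entries (GRCm38.p6) of 8 of the 10 members were searched, and Egr1 and Ier2 were left out. The 250 bases before the start are given, with matches in capitals. The elements searched on both strands were TGACGTCA (the full cAMP response element, CRE), its half-site TGACG (which the full element contains), the AP-1 sites TGACTCA and TGAGTCA, the AP-1-like variants TGACATCA and TTACCTCA, the CArG box bound by serum response factor, and the TATA box TATAAA. The promoters are Jun (chr4:95052223-95052472, minus strand), Atf3 (chr1:191183334-191183583, minus), Junb (chr8:84978749-84978998, minus), Fos (chr12:85473640-85473889, plus) and Dusp1 (chr17:26508473-26508722, minus).
Jun: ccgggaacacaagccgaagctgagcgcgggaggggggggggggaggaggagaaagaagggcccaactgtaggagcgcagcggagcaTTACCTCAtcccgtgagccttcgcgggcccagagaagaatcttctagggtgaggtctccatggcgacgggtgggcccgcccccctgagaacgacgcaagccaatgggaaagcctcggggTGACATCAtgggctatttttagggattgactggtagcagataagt
Atf3: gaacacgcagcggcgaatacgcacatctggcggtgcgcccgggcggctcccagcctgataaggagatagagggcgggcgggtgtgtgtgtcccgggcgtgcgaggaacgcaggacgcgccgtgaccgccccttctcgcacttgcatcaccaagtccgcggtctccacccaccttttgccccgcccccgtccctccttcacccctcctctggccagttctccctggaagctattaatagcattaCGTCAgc
Junb: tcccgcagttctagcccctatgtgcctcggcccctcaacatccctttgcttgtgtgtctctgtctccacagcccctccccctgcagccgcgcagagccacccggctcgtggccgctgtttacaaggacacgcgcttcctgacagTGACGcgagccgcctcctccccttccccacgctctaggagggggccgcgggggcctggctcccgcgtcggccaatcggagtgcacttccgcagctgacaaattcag
Fos: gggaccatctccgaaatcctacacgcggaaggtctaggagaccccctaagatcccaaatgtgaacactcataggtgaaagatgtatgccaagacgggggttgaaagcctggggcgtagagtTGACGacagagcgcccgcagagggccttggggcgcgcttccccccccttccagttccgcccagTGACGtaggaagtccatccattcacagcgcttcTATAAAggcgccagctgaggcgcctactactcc
Dusp1: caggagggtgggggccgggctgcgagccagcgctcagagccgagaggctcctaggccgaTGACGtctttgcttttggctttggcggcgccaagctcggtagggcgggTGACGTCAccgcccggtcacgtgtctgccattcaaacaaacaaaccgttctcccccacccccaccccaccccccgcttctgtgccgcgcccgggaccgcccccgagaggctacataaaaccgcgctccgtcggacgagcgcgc
The Jun promoter held TTACCTCA from base 164 before the start and TGACATCA from base 45. The full CRE was found in Dusp1, from base 143, and in Btg2, that is in 2 of 8 members, and in 1.62% of 27025 promoters. The half-site TGACG was in 5 of 8 members (Atf3, Btg2, Dusp1, Fos and Junb) and in 17.9% of promoters. TGACATCA was in Jun and Klf6 and in 3.02% of promoters, TTACCTCA in Jun and in 0.714%, and TATAAA in Fos and in 13%. The AP-1 sites, present in 4.43% of promoters, and the CArG box, present in 1.4%, were not matched in the windows of these 8 members. Nothing is said here of Egr1 and Ier2, which were not searched.

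At 198 mg/kg-d in FROZ liver, Egr1 alone of the 9 listed members was called, where 1.56% of all genes were called. Egr1 was also the 1 member DEG, beside 0.106% of all genes. Its level was 0.109, 0.955 and 2.01 CPM (lowest, median, highest of 6) in controls, 1.80, 12.8 and 22.6 CPM at 198 mg/kg-d, 1.35, 3.97 and 11.2 CPM at 313 mg/kg-d and 2.87, 9.26 and 12.8 CPM at 427 mg/kg-d. In controls these were 1 to 16 reads and at 198 mg/kg-d 15 to 172 reads. At 198 mg/kg-d 5 of 6 mice lay above every control, at 313 mg/kg-d 5 of 6, and at 427 mg/kg-d 6 of 6. The log2 fold change was 2.46 (SE 0.41, FDR 0.00221), 1.34 (SE 0.41, FDR 0.0172) and 2.11 (SE 0.41, FDR 0.000275). By limma voom on recovered reads the value at 313 mg/kg-d was 2.18 and was not called (FDR 0.059). The lower value at 313 than at 198 mg/kg-d, by 1.12 on the log2 scale, was not called (FDR 0.0783), but it was with animal 54 or animal 74 left out (FDR 0.00746 and 0.0358). The call of Egr1 at 313 mg/kg-d was lost without animal 74, which had the highest level of that group (log2 fold change 1.08, FDR 0.0571).

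**Figure D1:**
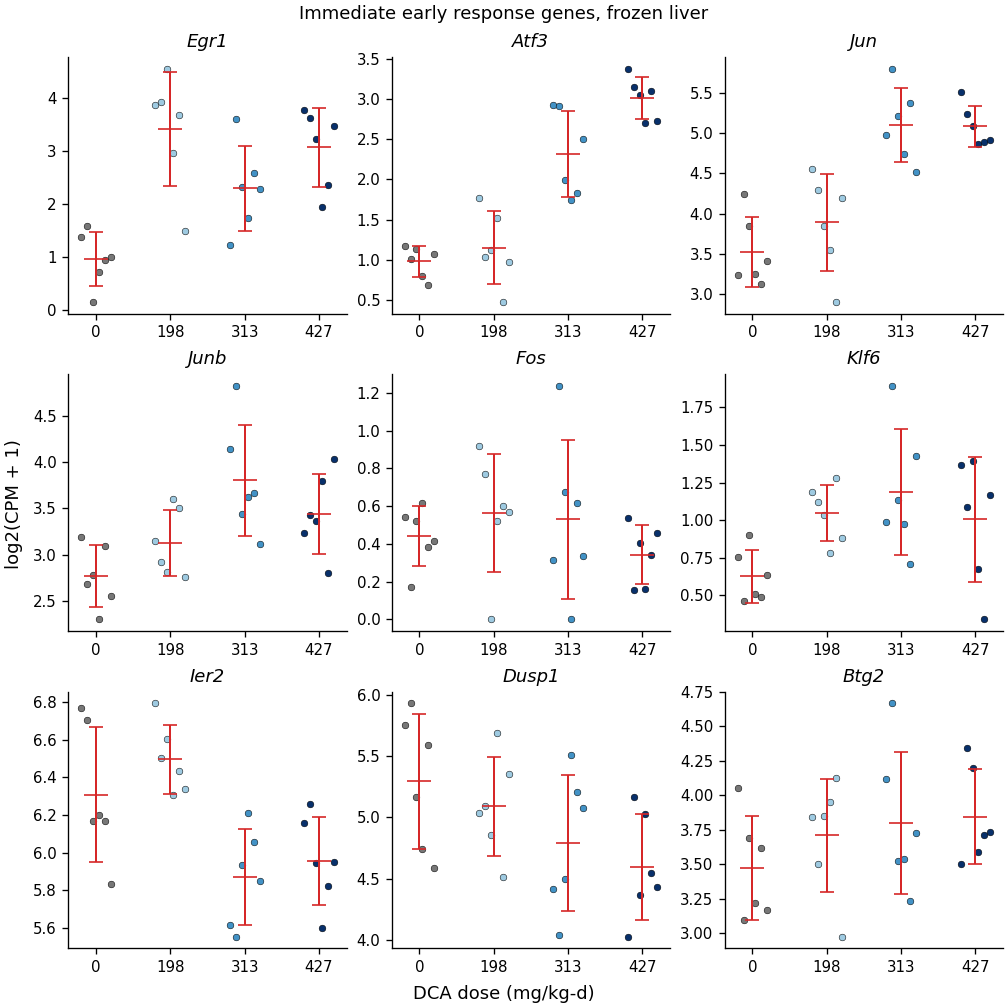
Level of the 9 members listed in FROZ liver by DCA dose in mg/kg-d. Points are mice, red lines the mean and SD of 6 mice, and the vertical axes, in log2(CPM + 1), differ between panels and do not start at 0 in all. Egr1 was above all controls in 5 of 6 mice at 198 mg/kg-d, and Atf3 and Jun in 6 of 6 mice at 313 and 427 mg/kg-d.

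Atf3 and Jun rose at the next dose. Atf3 was at 0.610, 1.06 and 1.26 CPM in controls and at 0.389, 1.12 and 2.42 CPM at 198 mg/kg-d, which overlapped. It reached 2.34, 3.84 and 6.61 CPM at 313 mg/kg-d and 5.50, 7.42 and 9.39 CPM at 427 mg/kg-d, where the 6 mice of each group lay above all controls. The log2 fold change of Atf3 was 0.17 (SE 0.21, FDR 0.735) at 198 mg/kg-d, 1.34 (SE 0.21, FDR 3.22e-05) at 313 mg/kg-d and 2.04 (SE 0.21, FDR 3.13e-08) at 427 mg/kg-d. Jun was at 7.72, 9.07 and 18.0 CPM in controls, 6.48, 15.4 and 22.4 CPM at 198 mg/kg-d, 21.9, 33.2 and 54.6 CPM at 313 mg/kg-d and 28.1, 31.2 and 44.4 CPM at 427 mg/kg-d. Jun of both higher doses did not overlap with controls, while 2 of 6 mice at 198 mg/kg-d lay above them. Its log2 fold change was 0.37 (SE 0.23, FDR 0.438), 1.58 (SE 0.23, FDR 1.64e-05) and 1.56 (SE 0.23, FDR 1.03e-05).

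Junb, the AP-1 partner often set against Jun in growth control, rose less. It was at 3.93, 5.64 and 8.13 CPM in controls, 5.77, 7.23 and 11.1 CPM at 198 mg/kg-d, 7.68, 11.5 and 27.2 CPM at 313 mg/kg-d and 6.00, 9.53 and 15.3 CPM at 427 mg/kg-d. Of the 6 mice, 5 at 313 mg/kg-d and 5 at 427 mg/kg-d were above all controls. Its log2 fold change was 0.36 (SE 0.23, FDR 0.45), 1.03 (SE 0.23, FDR 0.00164) and 0.68 (SE 0.23, FDR 0.0286). The call at 427 mg/kg-d was lost when animal 6, 8, 100 or 102 was left out (log2 fold change 0.56 to 0.63, FDR 0.058 to 0.0839).

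Fos, the partner of Jun in AP-1, had few reads in every group. It had 1 to 5 reads in a control library, 0 to 7 at 198 mg/kg-d, 0 to 10 at 313 mg/kg-d and 1 to 4 at 427 mg/kg-d, and was listed at 0 in 1 library of 198 and 1 of 313 mg/kg-d. Its log2 fold change was 0.12, 0.09 and -0.10 (SE 0.16 at each dose, FDR 0.76, 0.737 and 0.695). Klf6 was at 0.377, 0.489 and 0.871 CPM in controls, which is 3 to 8 reads, and at 0.722, 1.11 and 1.43 CPM at 198 mg/kg-d, 0.637, 1.09 and 2.71 CPM at 313 mg/kg-d and 0.267, 1.18 and 1.62 CPM at 427 mg/kg-d. Klf6 was called at 313 mg/kg-d alone (log2 fold change 0.56, SE 0.18, FDR 0.0208), and its 0.42 (FDR 0.223) and 0.38 (FDR 0.114) at the other doses were not. The call was lost without animal 74 (0.42, FDR 0.0716), the highest mouse of its group. Klf6 was also called at 427 mg/kg-d without animal 101 (0.51, FDR 0.0248).

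Ier2, a nuclear protein that rises quickly in growth-stimulated cells, and Dusp1 went the other way. Ier2 was at 56.0, 71.7 and 108 CPM in controls, 78.0, 87.6 and 110 CPM at 198 mg/kg-d, 45.9, 58.4 and 73.1 CPM at 313 mg/kg-d and 47.5, 60.6 and 75.6 CPM at 427 mg/kg-d. Groups overlapped at each dose, with 2 of 6 mice below all controls at both higher doses. Its log2 fold change was 0.19 (SE 0.14, FDR 0.52), -0.44 (SE 0.14, FDR 0.0226) and -0.35 (SE 0.14, FDR 0.0608), so it was called at 313 mg/kg-d. Without animal 3, 4, 73 or 74 that call was lost (FDR 0.0587 to 0.0721), and without animal 8, 97 or 98 Ier2 was called at 427 mg/kg-d (FDR 0.0164 to 0.0491). Dusp1 was at 23.0, 41.0 and 60.1 CPM in controls, 21.8, 32.5 and 50.7 CPM at 198 mg/kg-d, 15.4, 27.1 and 44.5 CPM at 313 mg/kg-d and 15.3, 21.5 and 35.0 CPM at 427 mg/kg-d. Of the 6 mice at the highest dose, 4 lay below all controls. Its log2 fold change was -0.21 (SE 0.25, FDR 0.735), -0.51 (SE 0.25, FDR 0.143) and -0.70 (SE 0.25, FDR 0.0356). The call at 427 mg/kg-d was lost when any of animals 3, 4, 7, 97, 99, 101 or 102 was left out (log2 fold change -0.69 to -0.58, FDR 0.0538 to 0.0991). Btg2 was at 7.54, 9.78 and 15.6 CPM in controls and at 10.3, 12.2 and 19.3 CPM at 427 mg/kg-d, and its log2 fold changes of 0.24, 0.33 and 0.37 (SE 0.22, FDR 0.63, 0.287 and 0.211) were not called.

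At 313 mg/kg-d 6 of 9 members were called, 5 higher and 1 lower, against 26.7% of all genes (20.5% higher and 6.15% lower), and 4 were DEGs (Egr1, Atf3, Jun and Junb) against 2.31%. At 427 mg/kg-d 5 of 9 were called, 4 higher and 1 lower, against 30.1% of all genes (22.7% higher and 7.33% lower), and 3 were DEGs (Egr1, Atf3 and Jun) against 3.5%. Groups did not overlap with controls for 0 members at 198 mg/kg-d, where 1.89% of all genes did not, for 2 at 313 mg/kg-d (11.5% of all genes) and for 3 at 427 mg/kg-d (14.7%). The median log2 fold change of the 9 members was 0.24, 0.56 and 0.38 at the 3 doses, beside 0.07, 0.11 and 0.10 over all genes. With median-ratio scaling, in place of CPM, the all-gene median moved to -0.00303, -0.00433 and -0.00686, and of the called genes 23.4%, 48.6% and 50.0% were higher at the 3 doses instead of 71.6%, 77.0% and 75.6%. Under that scaling the called members kept their directions, with Egr1 at 2.41, 1.25 and 2.02, Atf3 at 1.25 and 1.94 and Jun at 1.45 and 1.43 at the doses where they had been called. Junb at 427 mg/kg-d lost its call (0.55, FDR 0.0804), and Ier2 gained it (-0.50, FDR 0.0101).

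**Figure D2:**
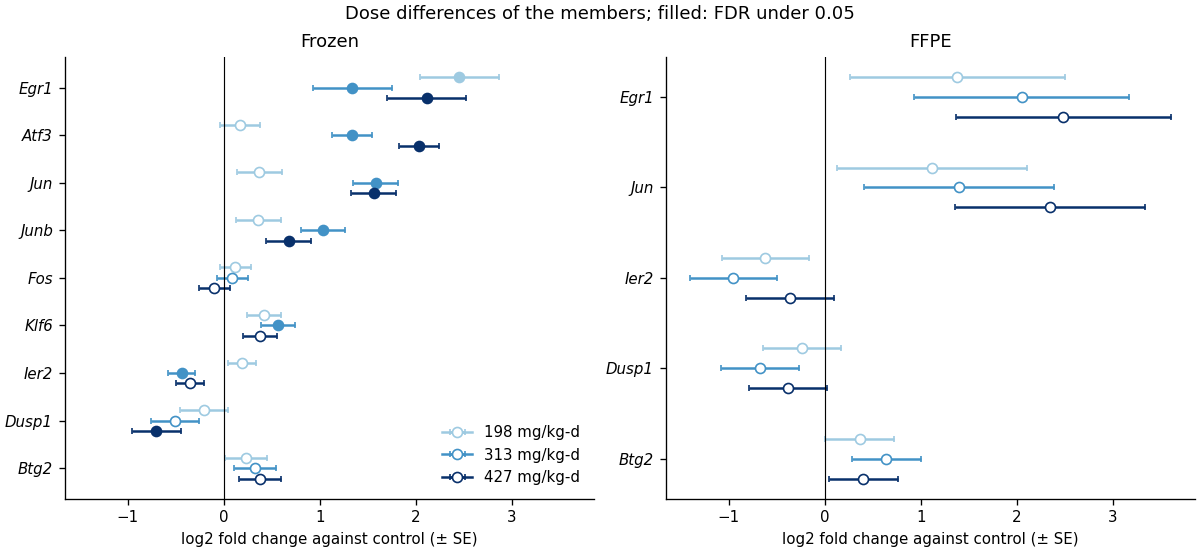
Log2 fold change against controls, with SE, of each member at 3 DCA doses in FROZ (left) and FFPE (right) liver, filled where the FDR was under 0.05. In FROZ, Egr1 was filled at all 3 doses and Atf3 and Jun at 313 and 427 mg/kg-d, and no FFPE point was filled.

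Between doses, Atf3 (log2 difference 1.17, FDR 0.000477), Jun (1.21, FDR 0.00102) and Ier2 (-0.63, FDR 0.00397) were called from 198 to 313 mg/kg-d, 3 of 9 members against 11.7% of all genes. From 313 to 427 mg/kg-d 0 of 9 members were called by limma, 1 at an unadjusted p under 0.05, against 3.07% of all genes. That member was Atf3, at 0.70 (FDR 0.0671), which was called without animal 73 (0.82, FDR 0.0296) or 74 (0.82, FDR 0.0404) and by limma voom on recovered reads (0.85, FDR 0.0475). A linear trend over dose was called for 6 of 9 members against 32.2% of all genes. Per 100 mg/kg-d, Atf3 rose by 0.49 (FDR 3.74e-07), Egr1 by 0.42 (FDR 0.00761), Jun by 0.41 (FDR 6.35e-06) and Junb by 0.20 (FDR 0.00835) on the log2 scale, and Dusp1 fell by 0.17 (FDR 0.0205) and Ier2 by 0.11 (FDR 0.0287). Without animal 3 or 4 the trends of Dusp1 (FDR 0.0542 to 0.0628) and Ier2 were not called, nor was that of Ier2 without animal 100 (FDR 0.0611 to 0.0778 over the 3 animals).

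The members also varied between mice of a dose. The SD within dose groups was 0.81 on the log2 scale for Egr1, which 99.4% of FROZ genes fell below, 0.49 for Dusp1 (96.2%), 0.45 for Jun (95.1%), 0.44 for Junb (94.7%), 0.42 for Btg2 (93.4%) and 0.39 for Atf3 (91.1%). Fos, at 0.29 (69.0%), and Ier2, at 0.27 (60.9%), were nearer to the median of all genes, 0.24. The part of counting noise in these SDs, for Egr1 at 1 to 172 reads and Atf3 at 3 to 83 reads a library, was not tested.

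Markers of several other cell types differed from controls at 313 or 427 mg/kg-d in FROZ. A lower level of a cell's transcripts and fewer of those cells cannot be told apart in bulk liver. Of 7 Kupffer cell markers 5 were called lower at 427 mg/kg-d, where 7.33% of all genes were. Their summed level was 214 to 289 CPM in controls and 133 to 205 CPM at 427 mg/kg-d, with Marco the 1 not listed. Of 5 erythroid markers 3 were called lower at 313 and at 427 mg/kg-d, against 6.15% and 7.33% of all genes (summed level 60.9 to 128 CPM in controls, 31.2 to 58.0 and 37.1 to 83.3 CPM). At 313 mg/kg-d 3 of 5 proliferation markers and 2 of 3 neutrophil markers were called higher, against 20.5% of all genes. Their summed levels were 21.2 to 38.5 CPM and 3.54 to 6.69 CPM in controls and 31.2 to 107 CPM and 3.79 to 11.7 CPM at that dose. At 427 mg/kg-d 0 of either were called, with summed levels of 23.0 to 114 CPM and 1.91 to 7.33 CPM. Endothelial markers summed to 130 to 149 CPM in controls, 101 to 127 CPM at 313 mg/kg-d and 100 to 122 CPM at 427 mg/kg-d. Of these 6 markers 1 was called lower at each of the 2 doses. Hepatocyte markers summed to 22208 to 28103 CPM in controls and 20291 to 24394 CPM at 427 mg/kg-d. There 2 of 7 were called higher, near the 22.7% of all genes. The part of these differences in the members' levels was not tested.

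The members did not move as 1 block from mouse to mouse. With dose means removed, the median Pearson r over the 36 pairs of FROZ-listed members was 0.214, beside a median of 0.023 over all pairs of FROZ genes. Of the 36 member pairs 24 were above 0, and of all 63557175 pairs of FROZ genes 33873440 were. Without animal 74 the median of the member pairs was 0.0892, and with dose left in it went from 0.207 (jackknife SE 0.123) to 0.129. All pairs share the 24 libraries and their scaling. The highest were Junb and Btg2 (0.62), Klf6 and Btg2 (0.54), and Egr1 and Klf6 (0.53), and the lowest were Fos and Dusp1 (-0.49) and Dusp1 and Klf6 (-0.48). Jun and Atf3, at 0.84 with dose left in, were at 0.44 with it removed, and Jun and Junb went from 0.56 to 0.01. Dusp1 was positive with Ier2 (0.47) and negative with the 7 other members, from -0.49 to -0.04.

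**Figure D3:**
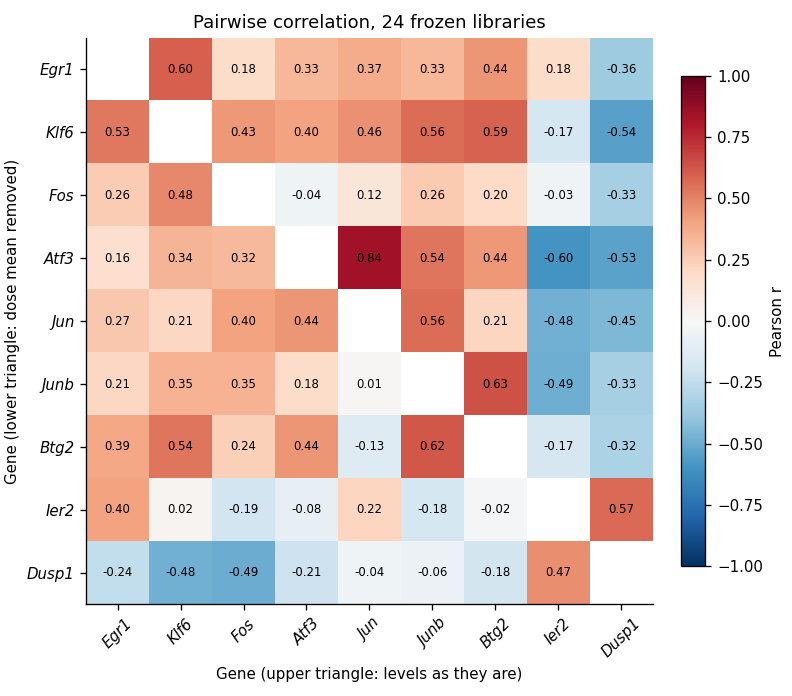
Pearson r between members over 24 FROZ libraries, with levels as they are in the upper triangle and dose means removed in the lower triangle. Dusp1 was negative with all members but Ier2 in both triangles, and Jun and Atf3 fell from 0.84 to 0.44 on removing dose.

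Other immediate early genes were read from a list of 39, of which 24 are in FROZ. At 427 mg/kg-d 9 rose (37.5%, against 22.7% of all genes), 1 fell (4.17%, against 7.33%) and 14 were not called, with a median log2 fold change of 0.26 beside 0.10 over all genes. Myc, the growth regulator, was at 2.44, 2.96 and 4.43 log2(CPM + 1) in controls and 4.41, 4.65 and 5.05 at 427 mg/kg-d (log2 fold change 1.44, SE 0.37, FDR 0.00389). Gadd45b (1.27, SE 0.28, FDR 0.00101) and Gadd45a (1.21, SE 0.20, FDR 3.18e-05), stress sensors that act on MAPK kinases and the cell cycle, and Jund (1.06, SE 0.14, FDR 2.01e-06), the third Jun protein, also rose. Cebpd fell (-0.80, FDR 0.00721). At 198 mg/kg-d 1 rose (Trib1, 0.60, FDR 0.0219) and 1 fell (Bhlhe40, -1.49, FDR 0.00137). These are 4.17% each, where 126 of all 11275 genes rose and 50 fell. At 313 mg/kg-d 4 rose (16.7%) and 0 fell, no larger shares than the 20.5% and 6.15% of all genes at that dose.

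Feedback inhibitors of the response, 17 of 22 listed genes in FROZ, gave 7 rises (41.2%, against 22.7% of all genes), 2 falls (11.8%, against 7.33%) and 8 without a call at 427 mg/kg-d (median 0.35, beside 0.10). Dusp6, a phosphatase of ERK, was at 5.59, 5.94 and 6.18 log2(CPM + 1) in controls and at 6.91, 7.20 and 7.34 at 427 mg/kg-d, which did not overlap (log2 fold change 1.28, SE 0.15, FDR 1.77e-07). Dusp8 (1.27, SE 0.17, FDR 2.1e-06), a phosphatase of JNK and p38, and Spred1 (0.85, SE 0.11, FDR 9.7e-07), an inhibitor of Ras signaling, rose too. Dusp8 was near the floor in controls, at 0, 0.34 and 0.91 log2(CPM + 1), and at 1.42, 1.63 and 1.79 at 427 mg/kg-d. Spry4, another inhibitor of receptor signaling, fell (-0.80, SE 0.19, FDR 0.00209). Dusp1 was thus called lower at a dose where Dusp6 and Dusp8 rose, but its call was lost with any of 7 animals left out. At 198 mg/kg-d 0 of the 17 were called, where 1.56% of all genes were, and at 313 mg/kg-d 3 rose (17.6%) and 1 fell (5.88%), close to the 20.5% and 6.15% of all genes.

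Of 29 kinases and nuclear factors upstream of the genes, 27 are in FROZ, and at 427 mg/kg-d 6 rose (22.2%), 1 fell (3.70%) and 20 were not called (median 0.18, beside 0.10). These shares are near or below the 22.7% and 7.33% of all genes. Egfr, the receptor for epidermal growth factor, fell from 9.92, 10.55 and 10.80 log2(CPM + 1) in controls to 8.96, 9.24 and 9.75 (log2 fold change -1.19, SE 0.16, FDR 2.06e-06). Mapkapk2, a kinase downstream of p38, rose by 0.82 (SE 0.08, FDR 1.93e-08) and Hras by 0.37 (SE 0.09, FDR 0.00177). At 313 mg/kg-d 8 of the 27 rose (29.6%, against 20.5% of all genes) and 1 fell (3.70%, against 6.15%). At 198 mg/kg-d 1 rose (3.70%) and 0 fell, where 1.56% of all genes were called. In FFPE 16 of the other immediate early genes, 10 of the feedback inhibitors and 22 of the upstream genes are listed. Of these, 1 was called at 427 mg/kg-d, Trib1, where 2.41% of all genes were. At 198 and 313 mg/kg-d 0 were called, where 0.0599% and 1.08% of all genes were.

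In FFPE liver 0 of the 5 listed members were called by limma at any dose. At 198, 313 and 427 mg/kg-d 0, 1 and 2 members had an unadjusted p under 0.05, and 0.0599, 1.08 and 2.41% of all 6673 genes were called. Egr1 was listed at 0 in 2 control, 2 low-dose and 1 mid-dose library. Its level was 0, 2.82 and 13.1 CPM in controls (lowest, median, highest), 0, 17.6 and 55.6 CPM at 198 mg/kg-d, 0, 15.9 and 72.4 CPM at 313 mg/kg-d and 5.81, 15.3 and 54.4 CPM at 427 mg/kg-d. Of the 6 mice at the highest dose, 4 were above all controls, and the log2 fold change was 1.38, 2.05 and 2.49 at the 3 doses (SE 1.12, FDR 0.648, 0.492 and 0.476). Jun was at 0, 12.5 and 18.2 CPM in controls and 19.2, 33.8 and 49.0 CPM at 427 mg/kg-d (log2 fold change 1.12, 1.40 and 2.35 at the 3 doses, SE 0.99, FDR 0.684, 0.628 and 0.398). Both were called at 427 mg/kg-d with array quality weights, Egr1 at 2.98 (FDR 0.00528) and Jun at 2.31 (FDR 0.018). Ier2 was at 66.9, 117 and 139 CPM in controls and 26.5, 66.9 and 86.5 CPM at 313 mg/kg-d (log2 fold change -0.62, -0.95 and -0.36 at the 3 doses, SE 0.46, FDR 0.61, 0.415 and 1). Dusp1 was at 67.9, 129 and 305 CPM in controls and 77.8, 91.4 and 187 CPM at 427 mg/kg-d (log2 fold change -0.24, -0.68 and -0.38 at the 3 doses, SE 0.41, FDR 0.847, 0.544 and 1). Btg2 was at 34.6, 60.0 and 65.1 CPM in controls and 58.0, 88.7 and 128 CPM at 313 mg/kg-d (log2 fold change 0.36, 0.64 and 0.40 at the 3 doses, SE 0.36, FDR 0.722, 0.508 and 0.986). The linear trend was called for 0 of 5 members, 2 at an unadjusted p under 0.05, and for 2.17% of all genes. Without the 7 libraries with over 800 genes at 0, 1 trend was called, that of Jun (0.55 per 100 mg/kg-d, FDR 0.0387), and 0 members were called at the 3 doses (at 427 mg/kg-d, Jun at 2.35, FDR 0.053, and Egr1 at 2.49, FDR 0.0931). The value of Ier2 at 198 mg/kg-d was then 0.80 (FDR 0.877), with 2 libraries left at that dose. Hepatocyte markers in FFPE, 6 of 8 listed, summed to 37226 to 49921 CPM in controls and to 26668 to 30928 CPM at 427 mg/kg-d, with 1 called lower, and Kupffer cell markers, 4 of 8 listed, to 252 to 477 and 158 to 226 CPM, with 0 called. Their part in the members' levels was not tested.

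**Figure D4:**
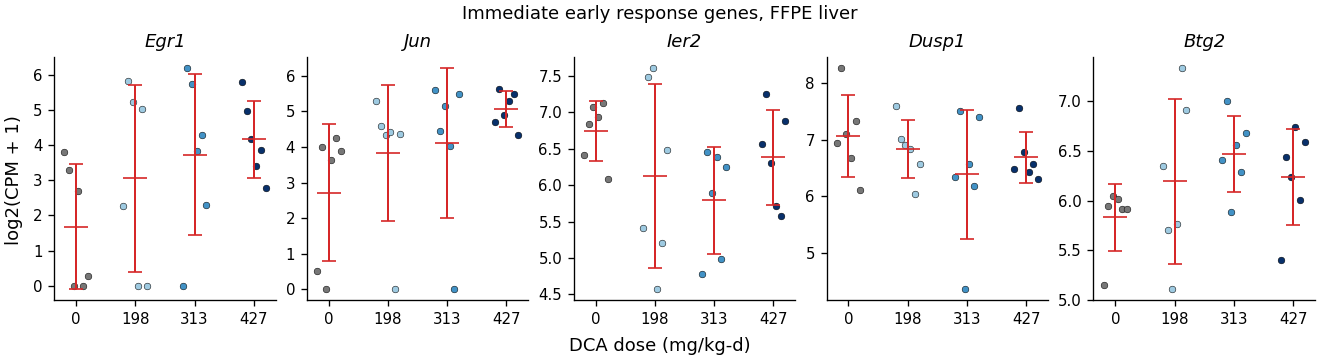
Level of the 5 members listed in FFPE liver by DCA dose in mg/kg-d, in log2(CPM + 1). Points are mice and red lines the mean and SD of 6. Egr1 and Jun were listed at 0 in control, 198 and 313 mg/kg-d libraries and in none at 427 mg/kg-d.

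The response to DCA was compared between preservations by subtracting the FROZ from the FFPE level within each mouse. By limma, 0 of 5 members were called for a difference in response at 198, 313 or 427 mg/kg-d (0 at an unadjusted p under 0.05), where 0.0303, 0 and 0.0303% of 6591 genes were called. At 427 mg/kg-d the difference in log2 response was 0.37 (SE 0.87) for Egr1 and 0.79 (SE 0.95) for Jun, and without the 7 libraries 0 members were called at any dose. Over all mice, the FFPE minus FROZ difference was called for 3 of 5 members against 75.3% of genes. It was 2.48 (SE 0.14, FDR 9.68e-14) for Btg2, 1.80 (SE 0.15, FDR 2.23e-10) for Dusp1 and 0.72 (SE 0.31, FDR 0.038) for Egr1, with the different input and the scaling of 2 separate tables in it. That of Egr1 was not called with CPM rescaled to the genes of both tables (0.67, FDR 0.0503), with an offset of 0.1 CPM (0.31, FDR 0.598), without the replicate block (0.72, FDR 0.13), or with any of 14 of the 24 animals left out (0.61 to 0.71, FDR 0.0513 to 0.0736). Without the 7 libraries with over 800 genes at 0, 4 members were called, Btg2 at 2.31, Dusp1 at 2.03, Egr1 at 1.16 (FDR 0.00315) and Ier2 at 0.59 (FDR 0.000768), where over all mice Ier2 was at 0.10 (FDR 0.579). Array quality weights also called Ier2 (0.42, FDR 0.00847).

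Egr1 in FFPE was compared with Egr1 in FROZ from mouse to mouse. With dose means removed, Pearson r over 24 mice was 0.72 (permutation within dose, two-sided, p = 0.00015) and Spearman rho 0.72 (permutation p = 0.00013). Without animals 51 and 5, which lay farthest from the median FROZ level, r was 0.68. Over all 24 mice, 99.3% of 6591 genes had a lower r, and the median was 0.0869. Without the mice of the 7 FFPE libraries with over 800 genes at 0, 17 mice were left and r was 0.58 (permutation p = 0.0309), and the r of the other members ran from -0.11 for Jun to 0.42 for Dusp1. Of 5 members compared this way, Egr1 alone had a permutation p under 0.05, none of them adjusted. Dusp1 had an r of 0.36 (permutation p = 0.143; rho 0.40, permutation p = 0.0845) and 0.58 without animals 97 and 74. Ier2 had 0.24 (permutation p = 0.197; rho 0.23, permutation p = 0.264), and 0.41 without animals 49 and 74. Jun had 0.18 (permutation p = 0.471; rho 0.02, permutation p = 0.926), and -0.09 without animals 53 and 7. Btg2 had 0.06 (permutation p = 0.788; rho 0.10, permutation p = 0.657), and 0.12 without animals 74 and 54.

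**Figure D5:**
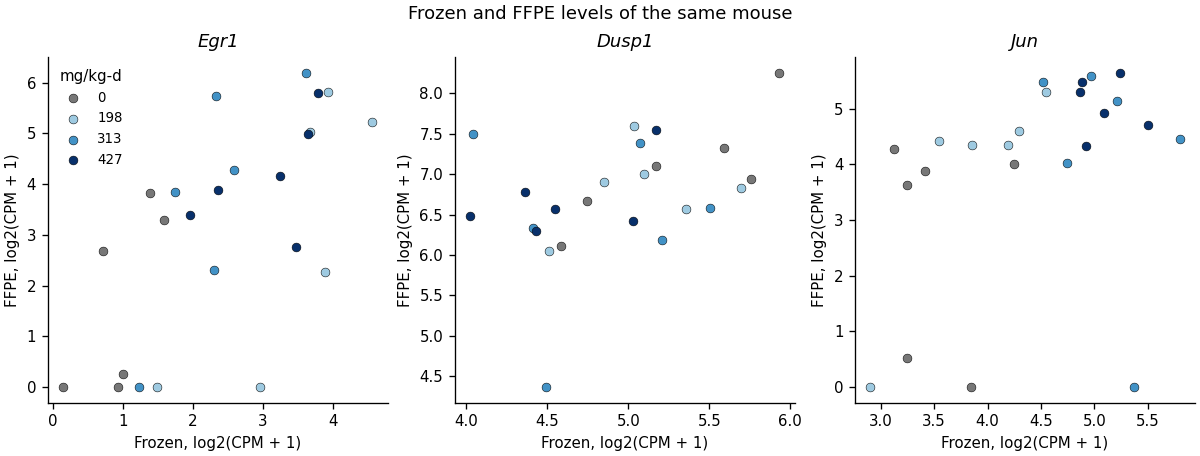
FROZ level against FFPE level, both in log2(CPM + 1), of Egr1, Dusp1 and Jun in 24 mice, colored by DCA dose in mg/kg-d. With dose means removed, r was 0.72 for Egr1, 0.36 for Dusp1 and 0.18 for Jun, and libraries listed at 0 lie on the lower edge.

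The genes whose FROZ levels were most like the mean standardized level of 8 members, those with a mean of at least 1 CPM, were Psme1 (Pearson r 0.78 over 24 libraries, 0.61 with dose means removed), Fam71d (0.77 and 0.63), 3110040N11Rik (0.76 and 0.62), Tmem183a (0.76 and 0.44), Rhou (0.75 and 0.54), Gak (0.75 and 0.55), Mbd3 (0.75 and 0.55) and Psmb7 (0.74 and 0.64). These non-members were picked as the highest of the FROZ genes by r with dose left in. Among the members the same r ran from -0.25 for Dusp1 and -0.04 for Ier2 to 0.74 for Egr1 and Klf6. Each of the 8 members is part of the mean it was correlated with, which raises its r. The mean standardized level of the 8 members was -1.04, -0.54 and 0.04 (lowest, median, highest) in controls and -0.29, 0.35 and 0.77 at 427 mg/kg-d, and these groups overlapped.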

How the data were processed

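TempO-Seq was measured in 48 liver libraries of 24 mice, 1 FROZ and 1 FFPE per mouse. The authors aligned reads to mm10 with STAR (2.6 per the labels), counted them in Partek by expectation maximization, filtered out genes whose geometric mean did not exceed 1, and deposited log2(CPM + 1) values, scaled separately for each table. Abundant probes had been attenuated, and no member is on that list. Ier3 in FROZ and 5 members in FFPE are not listed and were not analysed here.

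Groups came from the sample titles. Dose comparisons and linear trends were fitted by limma (3.58.1, R 4.3.3) with a mean-dependent variance prior, on the 24 libraries of a table. FFPE minus FROZ was fitted on within-animal differences, so the animal is the block. The numbers pair samples because they are the same mouse: over 4815 genes the deviations from dose means had a median r of 0.128 for a mouse's own libraries and of -0.0232 for those of dose mates, and 21 of 24 FROZ libraries matched their own FFPE library best. The CPM of 1 read was taken from the steps of low values (96.5 to 97.5% whole in FROZ, 85.7 to 95.8% in FFPE, within 0.1 read), which gave reads per library. Reads carry no molecular identifiers, so read counts cover counting error only. Per-mouse correlations used 100000 permutations within dose, and for raw levels across all 24 mice. Replicates are separate mice. Scripts were tested on simulated data.

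The members, lists and markers were chosen with earlier results of these data known. The genes named are all 10 members in every comparison, up to 4 called genes per list with the largest change at 427 mg/kg-d in FROZ, and the 8 genes most like the members. Of the genes this rule takes, 1 is not reported here. Trib1, Bhlhe40 and Cebpd were named after their values were seen. Alternatives were an offset of 0.1 CPM, a mean of at least 10 CPM, median-ratio scaling, a constant prior, array weights, each animal left out, 2 groups only, limma voom on recovered reads and, chosen after seeing the data, leaving out the FFPE libraries with over 800 genes at 0.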

Additional observations from a re-analysis of the deposited data

Results flagged for a closer look

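Over 56 groups of 6 libraries, 3 held a library far from the others of its group by Dixon's ratio, where chance flags about 1 in 20 groups. Jun was listed at 0 in FFPE animal 53 (198 mg/kg-d), with the next library at 4.35 log2(CPM + 1) (ratio 0.821), and at 0 in FFPE animal 77 (313 mg/kg-d), with the next at 4.02 (ratio 0.718). Btg2 was 5.15 in FFPE control animal 3, below the next at 5.92 (ratio 0.855). The FROZ libraries of animals 53 and 77 held Jun at 6.48 and 40.5 CPM. No response of a member was called as differing between FROZ and FFPE.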

How the results depend on the processing

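Keeping only genes that averaged 10 CPM or more, which leaves out Egr1, Atf3, Junb, Klf6 and Fos by construction, changed the members called in FROZ to 0 at 198, 2 at 313 and 3 at 427 mg/kg-d and 3 for the trend. Array quality weights called 1 member from 313 to 427 mg/kg-d in FROZ (Atf3), as did limma voom on recovered reads, and 2 in FFPE at 427 mg/kg-d and for the trend (Egr1 and Jun); the cause was not tested. Leaving out the FFPE libraries with over 800 genes at 0 called 1 FFPE trend. The members with a permutation p under 0.05 for FROZ against FFPE rose from 1 to 3 without the 2 farthest animals (Egr1, Ier2 and Dusp1). On raw levels they were also 3 (Egr1, Jun and Dusp1), but there dose was left in and mice were permuted across doses. A dose effect shared by FROZ and FFPE is part of those raw correlations. With limma voom the call of Egr1 at 313 mg/kg-d was lost (2.18, FDR 0.059). Without the replicate block, the paired FFPE minus FROZ comparison called 2 members, and the response differences 0 at each dose. Leaving out 1 animal gave 1 member called at 198 mg/kg-d, 3 to 6 at 313 mg/kg-d (3 without animal 74), 3 to 6 at 427 mg/kg-d (3 without animal 102) and 0 to 1 from 313 to 427 mg/kg-d in FROZ. No member reversed a called direction in any alternative. Of 755 member values under other settings 732 kept their side of the threshold, and of 1476 with 1 animal left out 1428 did. These totals include values that were not called, so they do not measure how stable the calls were. In FROZ the call of Dusp1 at 427 mg/kg-d was lost in 7 of 12 such fits. That of Junb at 427 mg/kg-d and that of Ier2 at 313 mg/kg-d were each lost in 4 of 12. Fos had 0 to 10 reads a FROZ library and Klf6 2 to 20, and how far depth limits them was not tested.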
